A study of Rattus norvegicus with 8 samples.

Results

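The genes described here are 10 rat genes of the drug-responsive receptor system of the liver: the nuclear receptors PXR (Nr1i2) and CAR (Nr1i3), the cytochrome P450 genes Cyp2b1, Cyp2b2, Cyp3a2, Cyp3a9 and Cyp3a18, the reductase gene Por, and the efflux transporter genes Abcc2 and Abcc3. They were chosen by name, and each was represented by the array probe of highest mean liver signal whose RefSeq accession belonged to the gene. A probe was found for 9 of the 10, out of 15154 genes that could be named on the array. Cyp2b1 had no probe matched in this way and is not analysed here.

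The animals were male Sprague-Dawley rats aged 78 to 86 days, and their livers were compared between offspring of dams exposed to agonists of the aryl hydrocarbon receptor (AhR group) and offspring of dams that had only corn oil (control group). The agonists were non-ortho-PCBs together with dioxins and furans of the polychlorinated kind, at 1.8 ng per kg per day in TCDD toxic equivalents, with exposure of the offspring from gestation day 0 to postnatal day 20. Pups of both groups stayed with their birth mothers, and each group had 4 arrays, each holding RNA pooled from 2 males. The pools are called replicates 1 to 4 of their group, and no label gives the litters behind a pool, so p-values measure the spread between pools. Each array carried liver RNA in Cy5 and a common reference RNA of 14 rat cell lines in Cy3, and values are given as the log2 ratio of Cy5 over Cy3 unless Cy5 signals are named.

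CAR and PXR sense drugs, steroids and other foreign compounds. Each pairs with the retinoid X receptor (RXR) and binds repeats of a short hexamer in front of its target genes. CAR is best known for the induction of CYP2B enzymes by phenobarbital and PXR for the induction of CYP3A enzymes. The P450 enzymes oxidise drugs and steroids with electrons passed on by the reductase POR, and the transporters ABCC2 and ABCC3 carry the conjugated products into bile and blood. In rats CYP3A2 and CYP3A18 are more abundant in male liver and CYP3A9 in female liver.

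The stretches of 250 bases before the start of the CYP3A genes are shown because one of them, that of Cyp3a2, holds a hexamer repeat of the kind PXR reads, and the others hold single hexamers. Sequences are from RefSeq, build GRCr8, written 5′ to 3′ on the gene's own strand. Capitals mark the hexamers AGTTCA or AGGTCA on either strand and, in Cyp3a2, the 3 bases between a pair of them.
Cyp3a2 (chr12:14343858-14344107, minus strand): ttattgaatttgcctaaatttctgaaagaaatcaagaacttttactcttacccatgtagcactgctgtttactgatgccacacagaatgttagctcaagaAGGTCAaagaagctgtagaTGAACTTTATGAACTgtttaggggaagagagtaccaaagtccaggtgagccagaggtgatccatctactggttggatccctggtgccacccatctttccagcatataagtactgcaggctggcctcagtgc
Cyp3a9 (chr12:21960161-21960410, minus strand): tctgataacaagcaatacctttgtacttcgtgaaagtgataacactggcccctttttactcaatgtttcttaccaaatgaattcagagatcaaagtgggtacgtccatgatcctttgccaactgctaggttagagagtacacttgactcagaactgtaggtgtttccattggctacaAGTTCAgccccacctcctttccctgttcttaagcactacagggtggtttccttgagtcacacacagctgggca
Cyp3a18 (chr12:13994062-13994311, plus strand): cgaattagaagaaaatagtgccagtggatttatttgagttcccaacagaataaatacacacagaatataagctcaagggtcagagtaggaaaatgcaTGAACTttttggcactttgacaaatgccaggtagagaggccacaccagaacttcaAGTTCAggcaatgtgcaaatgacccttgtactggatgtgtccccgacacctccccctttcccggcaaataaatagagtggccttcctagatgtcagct

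The Cyp3a2 window held the run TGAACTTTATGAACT from base -131 to base -117, counted back from the start. This is a DR3, a pair of hexamers on 1 strand with 3 bases between them, read from the opposite strand. A DR3 was searched on both strands as AGTTCANNNAGTTCA, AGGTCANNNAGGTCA, AGTTCANNNAGGTCA and AGGTCANNNAGTTCA, and 13 of the 33469 promoter windows in the table held 1 (0.0388%). The single hexamers within it overlap it, and alone they are common: AGTTCA stood in 12.2% of all windows and AGGTCA in 14.1%. Both single hexamers were sought on both strands too. Cyp3a9 held 1 AGTTCA and Cyp3a18 held 2 in their windows. The windows of these genes were unlike each other when slid along without gaps, with Cyp3a2 identical to Cyp3a9 at 34.5% of 232 bases and to Cyp3a18 at 38.2% of 246 bases. A match is a description of letters and no evidence of binding.

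The Cyp2b pair is shown because the windows of the 2 genes are near-copies. In these lines capitals mark the letters TTANGTAA on either strand, the D-box form read by DBP and related factors.
Cyp2b1 (chr1:90645869-90646118, plus strand): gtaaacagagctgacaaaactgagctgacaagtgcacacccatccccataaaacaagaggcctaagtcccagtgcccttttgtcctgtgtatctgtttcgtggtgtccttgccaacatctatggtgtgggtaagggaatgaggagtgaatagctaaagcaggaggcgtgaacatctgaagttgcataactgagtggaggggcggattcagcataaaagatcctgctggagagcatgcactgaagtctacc
Cyp2b2 (chr1:90722031-90722280, plus strand): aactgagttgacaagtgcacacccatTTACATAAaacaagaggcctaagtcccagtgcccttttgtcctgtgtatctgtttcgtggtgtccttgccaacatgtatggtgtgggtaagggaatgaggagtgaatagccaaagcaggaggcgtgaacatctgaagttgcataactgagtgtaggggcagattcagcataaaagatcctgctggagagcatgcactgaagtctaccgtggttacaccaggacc
Slid by 17 bases, the windows were identical at 225 of 233 bases (96.6%). Cyp2b2 held a D-box from base -224 to base -217, and 684 of all windows (2.04%) held 1. These bases lie before the start, so their likeness does not show what a probe binds. Transcripts of Cyp2b1 may bind probes of Cyp2b2, but probe sequences were not compared and this was not checked.

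Between the groups none of the fitted genes passed the test, and every one of them overlapped between AhR and control pools. Of the 9 genes with a probe, 8 passed the filter on dim probes, which asked for Cy5 well above background on at least 4 arrays, and were fitted with limma over all 17859 probes kept. In that fit 0 of the 8 had an adjusted p under 0.05, and so had 0 of all probes tested (0%). At an unadjusted p under 0.05 it gave 0 of the 8 and 288 of all probes (1.61%). Groups that did not overlap were seen for 0 of the 8 genes and for 1.19% of all probes (0.627% higher in AhR and 0.56% lower). AhR means were higher for 5 genes and lower for 3, with a median difference of 0.13, against a median of -0.0058 over all probes, of which 47.7% were higher. Each difference is AhR minus control on the log2 scale, and with limma the adjusted p was 1.00 for each of the 8.

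Nr1i2 encodes PXR, a receptor for steroids, bile acids and drugs. Its log2 ratio was 0.13, -0.11, -0.35 and -0.21 on AhR replicates 1 to 4, against 0.23, -0.23, 0.0020 and -0.38 on control replicates 1 to 4. The groups covered nearly the same range, and replicate 1 was the highest pool in both. The difference was -0.04 (SE 0.15, 95% interval -0.37 to 0.29), and the exact two-sided permutation test over arrays gave p = 0.857.

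Nr1i3 encodes CAR, which in resting hepatocytes waits in the cytoplasm and enters the nucleus on induction. Its log2 ratio was -0.88, -0.65, -1.16 and 0.65 on AhR replicates 1 to 4, against 0.18, -1.01, -0.24 and -0.37 on control replicates 1 to 4. AhR replicate 4 was the highest pool of all and AhR replicate 3 the lowest, so that the AhR pools enclosed the control pools on both sides. The difference was -0.15 (SE 0.36, 95% interval -0.95 to 0.65), with an exact permutation p = 0.771. It turned to 0.06 without AhR replicate 3 and to 0.03 without control replicate 1. A second Nr1i3 probe followed the first over the 8 arrays with r = 0.99, and differed between the groups by -0.23 (SE 0.32). In Cy5 signal, the chosen probe ran from 593 to 1685 units on AhR arrays and from 528.5 to 1263.5 units on control arrays.

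**Figure D1:**
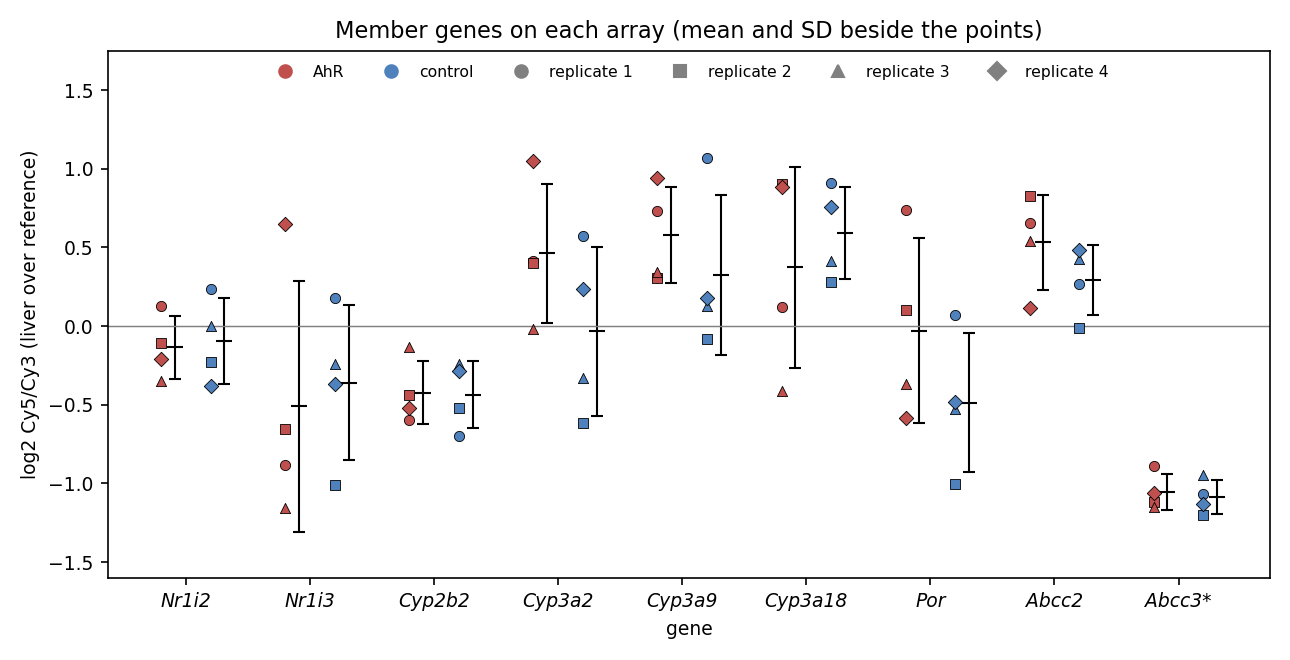
Log2 ratio of Cy5 (liver) over Cy3 (reference) of each gene on the 8 arrays, with AhR pools in red to the left of control pools in blue and 1 marker shape per replicate number; the bars beside the points are the mean and SD of 4 pools. The groups overlap for every gene, Nr1i3 spans -1.16 to 0.65, and Abcc3, marked by an asterisk, had Cy5 signals too close to background to be fitted.

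Cyp2b2 encodes a CYP2B enzyme of rat liver and is a classical target of CAR. The chosen probe gave a log2 ratio of -0.60, -0.44, -0.14 and -0.52 on AhR replicates 1 to 4, against -0.70, -0.52, -0.24 and -0.28 on control replicates 1 to 4. All 8 pools lay below 0 and the groups coincided. The difference was 0.013 (SE 0.13, 95% interval -0.29 to 0.31), with an exact permutation p = 0.943. A second probe for the same accession gave another picture of the pools. It read -2.22, -2.14, -2.08 and -1.24 on AhR replicates 1 to 4, against -1.83, -2.65, -1.81 and -2.68 on control replicates 1 to 4. Over the 8 arrays the probes were unrelated in direction (r = -0.16), and the second differed between the groups by 0.32 (SE 0.26, exact permutation p = 0.343). Neither probe separated the groups, and the profile of Cyp2b2 over the pools depends on the probe.

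Cyp3a2, a male-predominant steroid hydroxylase gene, had the largest difference among the 8 fitted genes. Its log2 ratio was 0.41, 0.40, -0.02 and 1.05 on AhR replicates 1 to 4, against 0.57, -0.62, -0.33 and 0.24 on control replicates 1 to 4. Control replicates 2 and 3 were the lowest pools and AhR replicate 4 the highest, while control replicate 1 stood above AhR replicates 1, 2 and 3. The mean was 0.46 ± 0.44 in AhR and -0.03 ± 0.54 in control (SD, n = 4 each). They differed by 0.50 (SE 0.27, exact permutation p = 0.200), or 1.41-fold with a 95% interval of 0.929 to 2.14. Its Cy5 signal averaged 155453 ± 37081 units in AhR and 112064 ± 38353 units in control (SD, n = 4 each), and no array had it saturated.

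Cyp3a9 encodes the CYP3A enzyme known for its female bias in rat liver. The array gave a log2 ratio of 0.73, 0.31, 0.34 and 0.94 on AhR replicates 1 to 4, against 1.07, -0.08, 0.13 and 0.18 on control replicates 1 to 4. Control replicate 1 lay above all AhR pools, and the other three control pools lay below all of them. The difference was 0.26 (SE 0.24, 95% interval -0.27 to 0.78), with an exact permutation p = 0.4. Without control replicate 1 it was 0.50 (limma unadjusted p = 0.0118, adjusted p = 1.00 over all probes).

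Cyp3a18, a further male-predominant family member, was read by 10 spots per array. Its log2 ratio was 0.12, 0.90, -0.41 and 0.89 on AhR replicates 1 to 4, against 0.91, 0.28, 0.41 and 0.76 on control replicates 1 to 4. The AhR pools fell into a high pair and a low pair that lay on either side of most control pools. The difference was -0.22 (SE 0.28, 95% interval -0.82 to 0.39), with an exact permutation p = 0.486, and it turned to 0.05 without AhR replicate 3.

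Por encodes the flavoprotein that supplies electrons to all microsomal P450 enzymes. Measured log2 ratios were 0.74, 0.10, -0.37 and -0.58 on AhR replicates 1 to 4, against 0.07, -1.004, -0.53 and -0.48 on control replicates 1 to 4. AhR replicate 1 was the highest pool and control replicate 2 the lowest, and the other six lay between 0.10 and -0.58. The mean was -0.028 ± 0.59 in AhR and -0.49 ± 0.44 in control (SD, n = 4 each), a difference of 0.46 (SE 0.29, 95% interval -0.18 to 1.09), with an exact permutation p = 0.286.

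Abcc2 encodes MRP2, the pump of the bile canaliculus that exports bilirubin glucuronides and other conjugates. Its log2 ratio was 0.66, 0.83, 0.54 and 0.12 on AhR replicates 1 to 4, against 0.27, -0.01, 0.43 and 0.48 on control replicates 1 to 4. Among the AhR pools replicates 1, 2 and 3 lay above all control pools, and replicate 4 lay below all but 1 of them. The difference was 0.24 (SE 0.16, 95% interval -0.11 to 0.60), with an exact permutation p = 0.229.

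Abcc3 encodes MRP3, a pump of the sinusoidal membrane that is scarce in normal rat liver and rises in cholestasis. Its Cy5 signal was not well above background on any of the 8 arrays, with 80 to 86.5 units in AhR and 78.5 to 90.5 units in control over local backgrounds of 73 to 76 units. Abcc3 was left out of the fit, and no fold is given. In the reference channel the same probe was well above background on all 8 arrays, though dim there too, at 85 to 111.2 units of Cy3.

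The 95% interval of the difference stayed within 2-fold in either direction for 6 of the 8 genes, and within 1.5-fold for Nr1i2 and the chosen Cyp2b2 probe. The second Cyp2b2 probe had a wider interval, of 0.836 to 1.87-fold. For Cyp3a2 and Por the upper bounds were 2.14-fold and 2.13-fold, so that neither no change nor a rise close to that size fell outside the interval. These intervals hold for ratios after an offset in the background correction and do not bound changes in RNA.

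**Figure D2:**
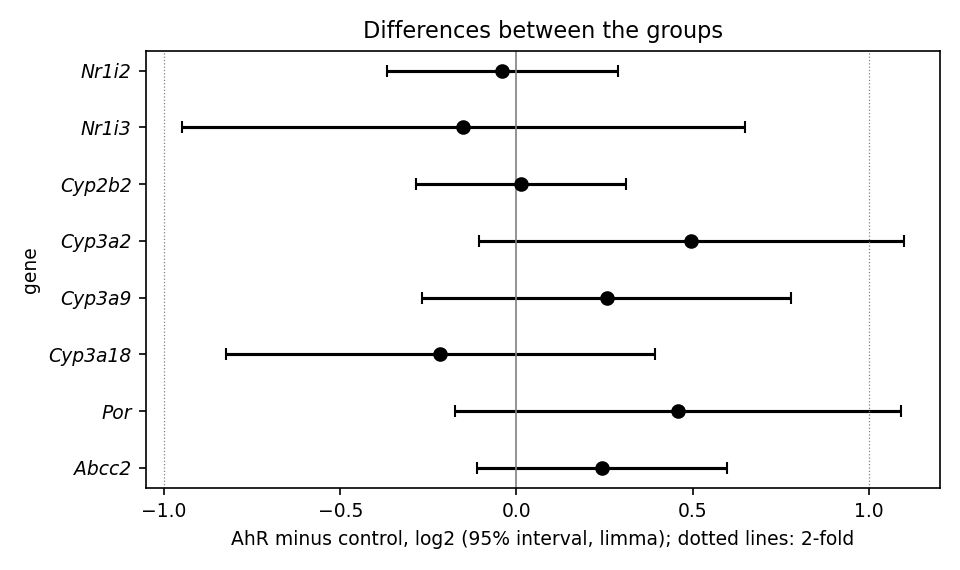
AhR minus control difference of the 8 fitted genes (points, log2) with 95% intervals from limma (bars) and dotted lines at 2-fold. All intervals include 0, and those of Cyp3a2 and Por reach past the upper dotted line.

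Several of the genes varied widely between pools of 1 group. The within-group SD was 0.66 for Nr1i3, 0.52 for Por, 0.50 for Cyp3a18, 0.49 for Cyp3a2 and 0.42 for Cyp3a9, against a median of 0.17 over the named genes that passed the filter. These 5 of the 8 lay above the 95th percentile of that spread, with Nr1i3 at the percentile 99.3. Among the brighter genes by Cy5 signal, where the median SD was 0.19, Nr1i3 lay at the percentile 98.9 and Cyp3a9 at 95.1. Nr1i2, Abcc2 and the chosen Cyp2b2 probe had SDs of 0.24, 0.27 and 0.21. The second Cyp2b2 probe had an SD of 0.47, at the percentile 97.8 and so above the same bound. Control replicate 2 was the lowest of the 8 pools for 4 of the 8 genes and control replicate 1 the highest for 3, among them Cyp3a9 and Cyp3a18.

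The arrays lay in 2 rows of 1 slide, each row with 2 AhR and 2 control pools. Nr1i3 averaged -0.02 ± 0.56 in row 1 and -0.85 ± 0.34 in row 2 (SD, n = 4 each), and Cyp3a18 averaged 0.78 ± 0.24 and 0.19 ± 0.48. For both the exact permutation test between rows gave p = 0.0571, with an adjusted p of 0.257 over 9 genes, where the smallest p possible is 0.0286. Pool and row cannot be told apart for a single array. The difference between AhR and control within row 1 and within row 2 was 0.03 and -0.33 for Nr1i3, and 0.23 and -0.67 for Cyp3a18. It was 0.60 and 0.39 for Cyp3a2, 0.03 and 0.49 for Cyp3a9, and 0.12 and 0.36 for Abcc2. For Por it was -0.01 in row 1 and 0.93 in row 2, for Nr1i2 -0.28 and 0.20, and for Cyp2b2 -0.01 and 0.04. With the chosen probes the sign thus differed between rows for 5 of the 8 genes. For Nr1i3, Por and Cyp2b2 the row 1 value was close to 0. The second Nr1i3 probe gave -0.16 in row 1 and -0.30 in row 2, and the second Cyp2b2 probe 0.13 and 0.51, without a change of sign. The share of all probes that changed sign was not counted.

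Por and Dbp ran side by side over the 8 arrays, though the relation did not pass when adjusted over all genes tested. Dbp encodes a transcription factor of the PAR bZIP family, an output of the circadian clock, and in mouse liver DBP and its relatives TEF and HLF are known regulators of Por and of Nr1i3. Dbp itself read 1.41, 1.22, 0.08 and -2.21 on AhR replicates 1 to 4, against 0.32, -1.36, -1.52 and -0.42 on control replicates 1 to 4, and the groups overlapped widely. Dbp was chosen because earlier results of these data had shown that it varied between pools. For Por, Pearson's r was 0.85 and Spearman's rho was 0.93 (exact permutation p = 0.00573 and 0.00223). Adjusted over all 10003 named genes tested against Dbp, the exact permutation p of r was 0.565 for Por, and 0 of these genes passed (0%). An r at least as far from 0 as that of Por was found for 1.41% of them, and one at least as high for 0.77%. At an unadjusted p under 0.05 there were 2 of the 8 genes, Por and Abcc2, and 6.86% of all. Adjusted over the 8 genes alone, which were chosen with earlier results known and give no independent evidence, the exact permutation p was 0.0458 for r and 0.0179 for rho. Without AhR replicates 1 and 4, the pools farthest from the median of Dbp, r was 0.86 (exact permutation p = 0.178, adjusted over the 8). With group means removed r was 0.82 (permutation p = 0.0859, adjusted over the 8). These deviations were permuted across both groups, so that test is only approximate. With each pool left out in turn r ran from 0.80 to 0.89, and the p adjusted over the 8 stayed under the threshold only without AhR replicate 4. Within the 4 arrays of row 1 r was 0.97 and within the 4 of row 2 it was 0.98, too few arrays for a test. High values within row 2 were not limited to Por: r with Dbp was 0.9998 for Cyp3a9 and 0.85 for Cyp3a2. In row 1 these were -0.10 and -0.08.

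Abcc2 ran the same way, with r = 0.78 and rho = 0.74 against Dbp, with an exact permutation p of 0.0246 for r, which did not pass (adjusted p = 0.690 over all genes tested). Nr1i3 had r = -0.47 and rho = -0.40 (exact permutation p = 0.237 and 0.327), and without AhR replicates 1 and 4 its r was 0.06. AhR replicate 4 held the lowest Dbp and the highest Nr1i3. The other five genes had r between -0.19 and 0.37 with Dbp over all arrays. Some of these moved with the setting: without AhR replicates 1 and 4 r was 0.84 for Cyp3a2 and 0.55 for Cyp3a9, and with median centring it was 0.72 for Nr1i2.

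Among the 28 pairs of fitted genes 0 passed after adjustment, and 2 had an exact permutation p under 0.05 for r. The highest r was that of Cyp3a2 and Cyp3a9, with r = 0.85 and rho = 0.90 (exact permutation p = 0.00618 and 0.00456, adjusted p = 0.173 and 0.128). Both were high on AhR replicate 4 and control replicate 1 and lowest on control replicate 2, and r was 0.73 without control replicate 2 and AhR replicate 4. The next was that of Cyp3a18 and Nr1i3 (r = 0.75, rho = 0.76, exact permutation p = 0.0321 and 0.0368, adjusted p = 0.394 and 0.343), with r = 0.70 without AhR replicate 4 and control replicate 1. This order did not hold with group means removed, where r was 0.86 for Cyp3a2 and Nr1i3 and 0.84 for Cyp3a2 and Cyp3a9. Next came Cyp3a2 and Cyp3a18 (r = 0.771), Por and Nr1i2 (r = 0.768), and Cyp3a18 and Nr1i3 (r = 0.742). All of these genes share the arrays and their normalization.

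**Figure D3:**
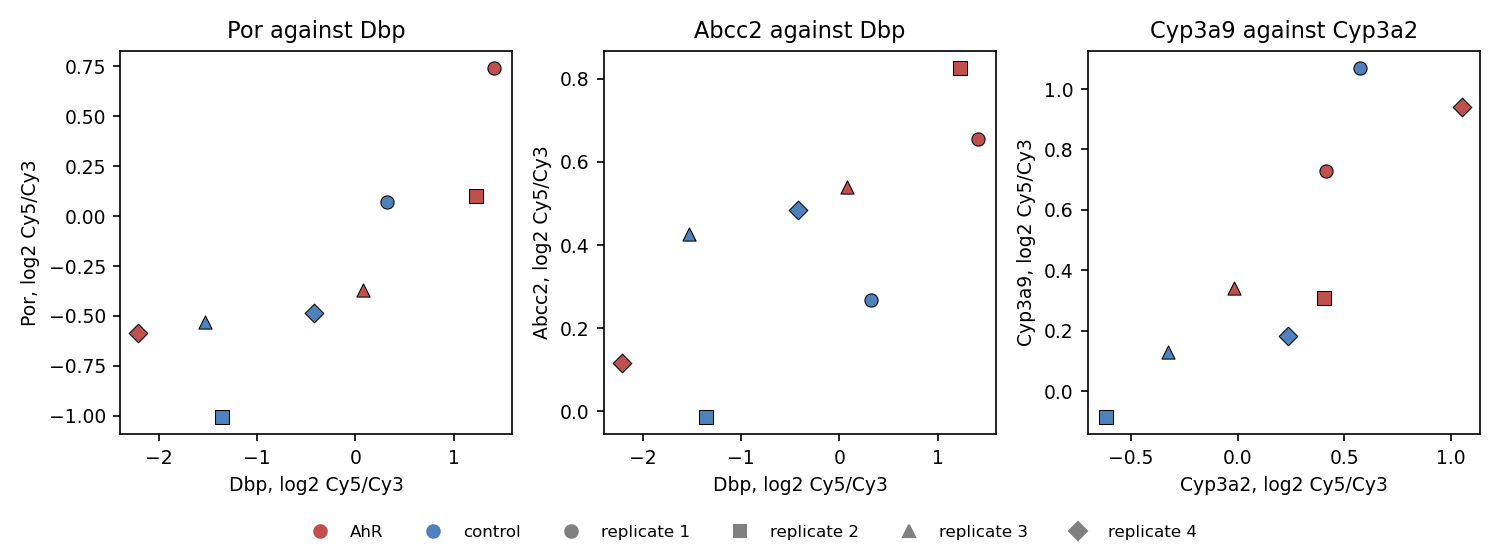
Log2 ratios of Por against Dbp, Abcc2 against Dbp, and Cyp3a9 against Cyp3a2 on the 8 arrays, with AhR pools in red, control pools in blue and 1 marker shape per replicate number. Por rises along Dbp with r = 0.85, and the ranges of the red and blue points overlap along each axis.

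The Por window is shown because the data set Por against Dbp, whose product reads the D-box. Capitals mark the hexamer AGGTCA, read here from the opposite strand.
Por (chr12:26635810-26636059, minus strand): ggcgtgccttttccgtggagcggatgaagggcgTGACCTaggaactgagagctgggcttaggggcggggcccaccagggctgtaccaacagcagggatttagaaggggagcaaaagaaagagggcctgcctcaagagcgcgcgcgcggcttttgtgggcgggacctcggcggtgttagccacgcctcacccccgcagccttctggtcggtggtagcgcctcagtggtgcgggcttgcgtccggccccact
No TTANGTAA stood in these 250 bases, which says nothing of other parts of the gene. Of the 9 genes of this group with a window in the table, Cyp2b2 alone held a D-box and Cyp3a2 alone a DR3. DR4 was searched as AGTTCANNNNAGTTCA, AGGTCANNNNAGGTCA, AGTTCANNNNAGGTCA and AGGTCANNNNAGTTCA and stood in 0.0149% of all windows. ER6 was searched as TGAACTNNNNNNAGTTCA, TGACCTNNNNNNAGGTCA, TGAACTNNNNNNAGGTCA and TGACCTNNNNNNAGTTCA and stood in 0.00299%, and the E-box CACGTG stood in 5.59%, each on both strands. None of these 3 stood in the window of a gene described here.

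The named genes most similar to the receptors and to Por over the 8 arrays were sought among 9996 others, as a description. For Nr1i2 they were Pcsk6 (r = 0.98), Cog2 (r = 0.97) and Pex14 (r = 0.97). For Nr1i3 they were Mpi (r = 0.97), Or5h26 (r = 0.95) and Popdc2 (r = 0.95), of which Or5h26 had an SD of only 0.084 over the arrays. For Por they were Ppif (r = 0.96), Med9 (r = 0.95) and Tprg1l (r = 0.95). They share arrays and normalization with the genes they resemble.

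Other genes listed here as targets of CAR and PXR did not pass either. Whether each is induced through them in rat liver was not checked. Of the 36 listed genes, 28 were measured, 0 were higher and 0 lower by the test, and 0 had an unadjusted limma p under 0.05. AhR means were higher for 9 and lower for 19, with a median difference of -0.06. The smallest p values belonged to the glutathione transferase genes Gsta3 at -0.39 (SE 0.19) and Gsta1 at -0.27 (SE 0.16), and to the aldo-keto reductase gene Akr1b7 at -0.47 (SE 0.35), each with a limma adjusted p of 1.00. Akr1b7 was dim, averaging 118 units of Cy5 in AhR and 149 in control over array backgrounds of 71 to 76. Cyp3a23-3a1, the PXR-inducible CYP3A gene of rat liver, averaged 0.0096 ± 0.22 in AhR and 0.08 ± 0.43 in control (SD, n = 4 each), a difference of -0.07 (SE 0.20). Slco1a4, an uptake transporter induced through PXR, averaged -0.42 ± 0.44 in AhR and -0.12 ± 0.72 in control (SD, n = 4 each), a difference of -0.30 (SE 0.33). Abcb1a, a multidrug efflux pump gene, did not pass the filter on dim probes.

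Partners of the receptors were measured for 21 of 28 listed genes, with 12 AhR means higher and 9 lower, a median difference of 0.02, and 0 past the test in either direction. Rxra, the common partner of both receptors, averaged -0.21 ± 0.39 in AhR and -0.12 ± 0.44 in control (SD, n = 4 each), a difference of -0.09 (SE 0.23). Hnf4a, a hepatocyte factor needed for CAR and PXR expression, differed by 0.17 (SE 0.11), and Foxa2, a pioneer factor of the liver, by -0.22 (SE 0.18). Nr0b2, which encodes a repressor of nuclear receptors, had a difference of 0.81 with an SE of 0.69, as it varied widely between pools of both groups.

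Clock genes and PAR bZIP factors were measured for 12 of 15, with 7 AhR means higher and 5 lower, a median of 0.05 and 0 past the test. Tef differed by 0.48 (SE 0.25), Npas2 by -0.38 (SE 0.24), Bmal1 by -0.52 (SE 0.41) and Dbp by 0.87 (SE 0.71). Genes of P450 electron transfer and haem supply were all 16 measured, with 4 AhR means higher and 12 lower, a median of -0.06 and 0 past the test. Cyb5r3, the reductase of cytochrome b5, differed by 0.17 (SE 0.12), the ferrochelatase gene Fech by -0.16 (SE 0.12) and Cyb5b by -0.16 (SE 0.13).

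**Figure D4:**
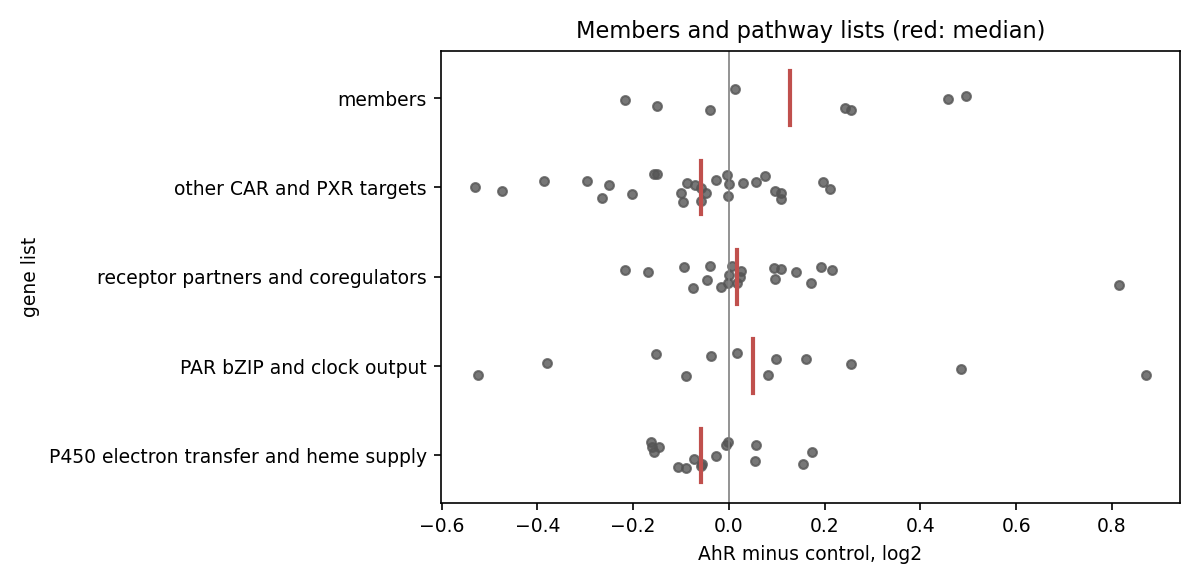
AhR minus control differences (log2, 1 point per gene) of the 8 fitted genes and of 4 lists of other genes of the pathway, with the median of each list as a red line. The medians run from -0.06 for other CAR and PXR targets to 0.13 for the 8 genes, and none of the points passed the test.

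Marker genes of cell types were compared between the groups. In these bulk samples fewer cells of a type and less RNA per cell cannot be told apart. All 20 hepatocyte markers were measured, with a median difference of 0.0067 and a summed Cy5 signal of 3783000 to 5608000 units in AhR and 3705000 to 4548000 units in control. Pericentral markers, from the zone where CYP2B and CYP3A enzymes are most abundant, had a median difference of 0.02 over 14 genes, and periportal markers one of -0.01 over 15. Male-biased genes had a median of 0.0049 over 11, and female-biased genes of -0.06 over 8. Endothelial markers had higher AhR means for 7 of 7 measured, summed at 10220 to 16200 units in AhR and 8479 to 12270 in control, and stellate markers for 9 of 10, at 17310 to 32020 units in AhR and 13410 to 21860 in control. Kupffer and macrophage markers were higher for 11 of 14, cholangiocyte markers for 6 of 7, and T, B and NK cell markers for 1 of 8. Erythroid markers had lower AhR means for 5 of 5, summed at 248300 to 581100 units in AhR and 335200 to 488000 in control. The summed signals are not normalized between arrays. AhR replicate 2, the brightest array (median Cy5 232 units), gave the highest AhR sum in each of these lists. Among AhR arrays it had the lowest mean log2 ratio for endothelial and stellate markers, and the highest for hepatocyte and erythroid markers. None of these marker genes passed the test, though 1 endothelial and 1 stellate gene did not overlap between the groups, and their part in the differences of the receptor and target genes was not tested.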

How the data were processed

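Each array was scanned in Cy5 and Cy3, and the deposited intensity values used here are medians over the pixels of a spot and of the surrounding background, as written by version 10.7.3.1 of the Agilent scanner software (per the file headers). Processed intensity values in the same files had been background-subtracted and dye-normalized by the scanner software, per the file headers. A table of log2 values was deposited too. Its scale and centring are not stated, and it followed the loess-normalized Cy5 over Cy3 ratio without background subtraction with r of 0.991 to 0.996, with column medians of 0.00569 to 0.0165. Here normexp (offset 50) corrected the background, and arrays were normalized by loess (limma 3.58.1, R 4.3.3), with control and outlier-flagged spots left out. For Abcc2, 1 or 2 of 10 spots per array were left out in this way. Spots of a probe were averaged, and 17859 of 30367 probes were kept, those with a liver signal well above background on 4 or more of the 8 arrays. The median Cy5 signal per array was 159 to 232 units over a background of 71 to 76. Precision is limited by having 4 arrays a group. All arrays were on 1 slide and from 1 scan, and their log2 ratios correlated at 0.395 to 0.728 across probes. No dyes were swapped, so levels against the reference are open to dye bias.

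Accessions were matched without versions to the RefSeq table of assembly GRCr8, which named 18004 probes. The array design used build rn4, and coordinates given are those of GRCr8. Groups were compared with limma (lmFit, eBayes, Benjamini-Hochberg over all kept probes), tested first on simulated data. Relations over arrays used exact two-sided permutation tests adjusted within their family, those with Dbp also over all named genes. On deviations from group means these tests are only approximate. The genes and lists were chosen with earlier results of these data known. Named genes were the members, the 3 of smallest p in each of 4 pathway lists, and 6 further genes set by name (Cyp3a23-3a1, Rxra, Abcb1a, Slco1a4, Dbp, Nr0b2). Of these, 1 gene is not reported here. Alternatives covered background, normalization, the Cy5 channel alone, the value table, the filter, blocks, the variance model, probes per gene and each array left out; leaving out arrays for the relations and adjusting over all named genes were added after the data were seen.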

Additional observations from a re-analysis of the deposited data

How the results depend on the processing

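Limma called 0 probes and 0 of the 8 genes under every alternative, and none of the 152 recomputed differences passed the adjusted threshold. Of these 142 kept their sign. Nr1i2 turned to 0.019 with median centring, and Cyp2b2 to -0.056 with the Cy5 channel alone. With each array left out in turn, Nr1i2 ran from -0.14 to 0.069, Nr1i3 from -0.54 to 0.065, Cyp2b2 from -0.083 to 0.078 and Cyp3a18 from -0.39 to 0.046. Cyp3a2 ran from 0.30 to 0.70, Cyp3a9 from 0.12 to 0.50, Por from 0.20 to 0.64 and Abcc2 from 0.14 to 0.38. The causes of these shifts were not tested. Pool numbers also give the column of the slide. AhR and control pools of the same number deviated with r of 0.0027, -0.062, 0.048 and -0.37. For pools of different numbers r ran from -0.32 to 0.28. Pools of the same number lay in opposite rows of the slide, so these r cannot decide whether the numbers mark pairs. With the replicate block the count of genes called was 0, with Cyp3a2 at 0.50 and Por at 0.46. Their unadjusted limma p were 0.0330 and 0.0461, and the adjusted p 1.00. The share of all probes under 0.05 in the fit with this block was not counted. No pair of genes passed under any setting (lowest exact permutation adjusted p = 0.0583). Adjusted over the 8 genes alone, the count of genes related to Dbp was 1, and 0 on deviations from group means and without the 2 arrays farthest from the median of Dbp. With arrays left out in turn it ran from 0 to 1, and the cause was not tested. Adjusted over all named genes the count was 0.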
